A study of Homo sapiens with 6 samples.

Results

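RAB GTPases are the small GTP-binding proteins that give each membrane compartment of a cell its identity. A RAB carries geranylgeranyl lipid tails and shuttles between the cytosol, where GDP dissociation inhibitor (GDI) holds it in the GDP-bound state, and a membrane, where an exchange factor loads it with GTP and it recruits tethers, motors and other effectors until a GTPase-activating protein ends the cycle. RAB1 and RAB2 act between the endoplasmic reticulum (ER) and the Golgi, RAB5 on early endosomes, RAB11 on recycling endosomes, RAB7 on late endosomes and lysosomes, and RAB3, RAB8, RAB27 and RAB37 in exocytosis. The members described here were chosen by name: each gene entry whose symbol is RAB, a number and at most a letter and a further digit, which gave 62 of the 26485 entries of the count table.

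RNA was measured in REH cells, a human cell line from a B-precursor acute lymphoblastic leukaemia, in 6 bulk libraries. The ML141 group held 3 libraries from cells given 25 µM ML141 for 24 h. The DMSO group held 3 libraries from cells given the vehicle DMSO for 24 h. ML141 is a compound that inhibits CDC42, a GTPase outside the RAB family, and the comparison sets the transcriptome of cells given it against that of cells given its vehicle. The labels name 3 independent experiments, and all libraries come from 1 cell line, 1 dose and 1 time. The libraries held 10436147, 12308039 and 10860349 counts with ML141 and 8284299, 10319697 and 10837224 with DMSO. Levels are given as CPM, each count scaled to library size after weighting by trimmed mean of M-values (TMM), a scale on which 1 count equals 0.0754 to 0.130 CPM. Of 12 B-precursor marker genes, 11 had a mean of at least 5 CPM, VPREB1 being the exception, and their sum was 9351 to 9665 CPM with ML141 and 7428 to 8125 CPM with DMSO. Myeloid markers summed to 32.7 to 36.1 CPM with ML141 and 49.1 to 50.1 CPM with DMSO, with MPO the single one of 5 at 5 CPM or more. T-cell markers stayed at or below 0.344 CPM, with CD3D, CD2 and CD5 at 0, and erythroid markers at or below 0.104 CPM, with HBB at 0. Epithelial and stromal markers summed to 0.556 to 1.63 CPM with ML141 and 1.87 to 2.07 CPM with DMSO, with EPCAM and KRT18 at 0. The part of these marker differences in the RAB results was not tested, and in bulk RNA a change in the share of cells and a change in RNA per cell cannot be told apart. CDC42, which is no RAB, had 207, 189 and 209 CPM with ML141 and 276, 276 and 280 CPM with DMSO (log2 fold change -0.46, SE 0.075, edgeR adjusted p 2.93e-04), a transcript level that says nothing of the protein's activity; 62.6% of CDC42's exon bases are shared with AL031281.2 on the same strand.

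Of the RABs that could be tested 50% changed (54.4% of all tested genes did), in about equal numbers up and down. RAB37, RAB39B and RAB3D rose by the most and RAB3A, RAB3B and RAB26 fell by the most, RAB3A and RAB26 on few counts. Each gene was tested with edgeR's quasi-likelihood F-test, with Benjamini-Hochberg adjustment over all 11454 genes with enough counts, and a gene was called at an adjusted p below 0.05. Of the 62 members, 42 passed the count filter; 11 of these rose with ML141, 10 fell and 21 did not pass the test, with log2 fold changes from -0.25 to 0.46. The share of tested members that rose was 26.2%, beside 26.7% of all tested genes, and the share that fell was 23.8%, beside 27.7%. These shares lie near those of all tested genes, so the counts are not a result about the family. The median log2 fold change was -0.02 over the members, with quartiles of -0.22 and 0.46, and 0.02 over all tested genes, with quartiles of -0.38 and 0.40. More than 2-fold, 3 members rose (6.76% of all tested genes did) and 3 fell (6.24% of all). Of the 3 that fell, RAB26 reached the filter's minimum in 3 DMSO libraries but in only 2 ML141 libraries. It thus entered the test through the group where it was higher, and its call was lost under 9 of 19 alternatives. The balance of directions depended on the scaling. With upper-quartile factors 13 members rose and 7 fell, beside 33.6% and 22.8% of all tested genes, and with library totals 18 rose and 6 fell, beside 39.2% and 20.1%. Those scalings put the median of all genes at 0.12 and 0.19, and that of the members at 0.08 and 0.15.

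**Figure D1:**
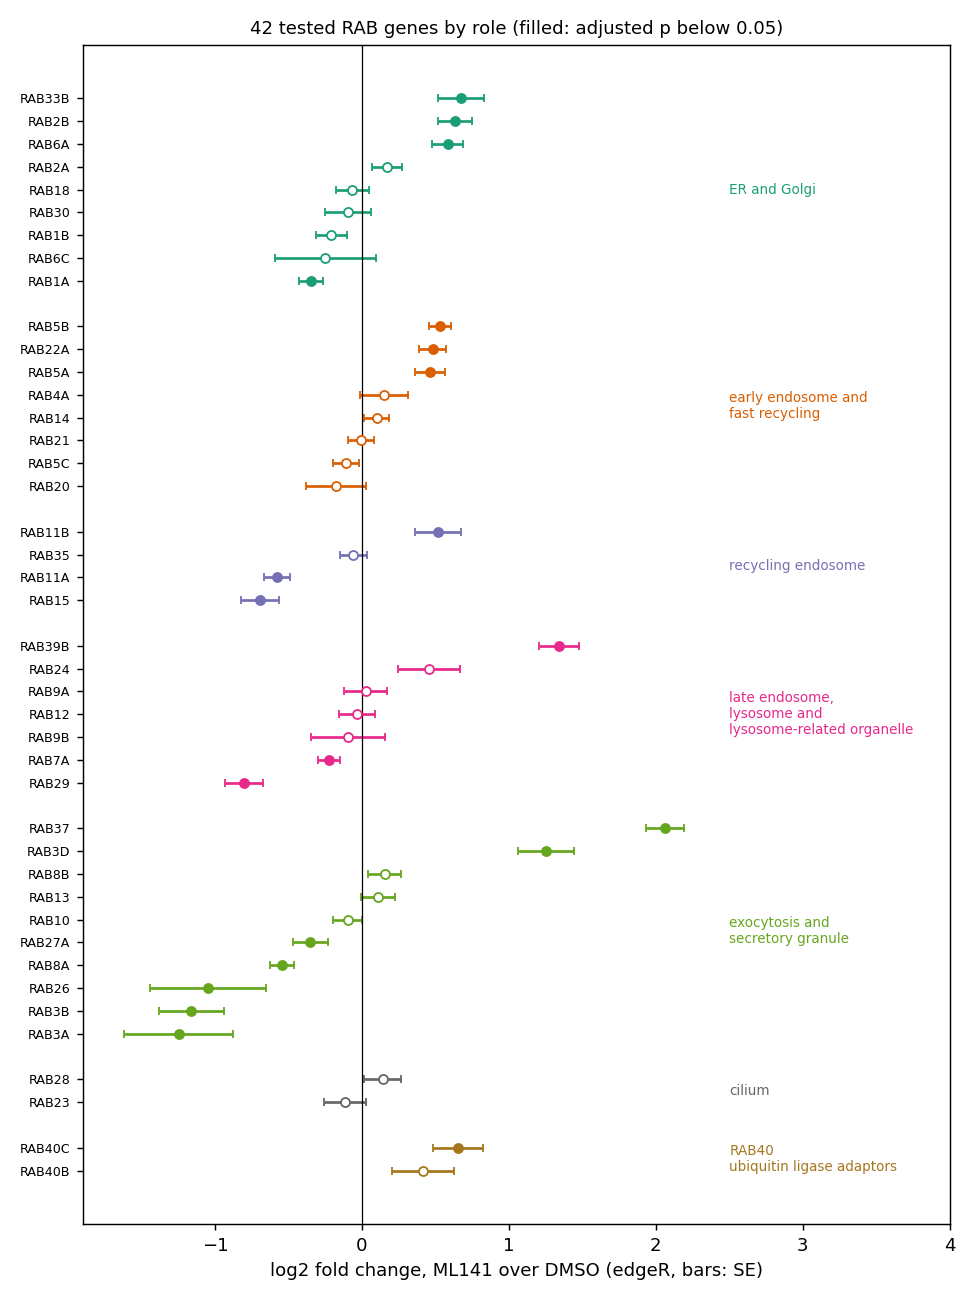
Log2 fold change of ML141 over DMSO (edgeR, bars are SE) for the 42 tested RAB genes, grouped by the list of known roles in which each was placed; filled points passed an adjusted p of 0.05. The early endosome genes that passed lie right of 0, and 5 of the 7 exocytosis genes that passed lie left of it, while RAB37 has the highest value at 2.06.

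For 12 members every ML141 library was above every DMSO library and for 9 members below, beside 30.5% and 30.7% of all tested genes (61.2% in either direction). Of the 21 called members, 20 were among these. RAB3A was called with overlapping libraries, and RAB13, an exocytosis RAB of epithelial junctions, did not overlap (23.7, 21.9 and 21.1 CPM with ML141, against 20.6, 21.0 and 20.1 CPM with DMSO) without being called. Summed per kilobase of exon, all 62 members held 858, 776 and 819.7 CPM per kb with ML141 and 827, 828 and 818 CPM per kb with DMSO. The means of 818 ± 41.3 and 824 ± 5.51 (SD, n = 3 each) differed by less than the spread between the ML141 libraries.

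The 8 RABs with the highest level per length in DMSO are given here in the order of that level. RAB7A, which drives fusion of late endosomes with lysosomes, was highest, at 97.8 ± 3.87 CPM per kb of exon with ML141 and 114 ± 3.88 with DMSO (SD, n = 3 each, as for all values in this paragraph). RAB10, which carries secretory and recycling cargo to the plasma membrane, stood at 76.9 ± 10.5 with ML141 and 82.2 ± 3.45 with DMSO. RAB8A, its relative in post-Golgi exocytosis and the growth of cilia, stood at 53.6 ± 2.75 with ML141 and 78.3 ± 4.40 with DMSO, so that RAB8A and RAB10, which lay within their summed SDs of each other in DMSO, did not with ML141. RAB5C, an early endosome RAB, gave 43.9 ± 2.42 with ML141 and 47.3 ± 2.71 with DMSO. RAB1A, for transport from the ER to the Golgi, gave 34.0 ± 1.81 with ML141 and 43.2 ± 1.20 with DMSO. RAB11A, for recycling endosomes, gave 27.3 ± 2.34 with ML141 and 40.8 ± 2.37 with DMSO. RAB6A, for traffic at the Golgi, gave 59.5 ± 8.64 with ML141 and 39.7 ± 3.02 with DMSO, and RAB14, between the Golgi and early endosomes, gave 41.3 ± 3.45 with ML141 and 38.6 ± 1.58 with DMSO. In DMSO RAB1A, RAB11A, RAB6A and RAB14 each lay within the summed SDs of the next in that order. With ML141 RAB6A stood clear above RAB11A and RAB1A. RAB5A, next but one in DMSO at 32.5 ± 1.65, stood at 44.8 ± 5.75 with ML141, within the summed SDs of RAB5C and of RAB14. The order of levels in DMSO was nearly the same with the longest transcript in place of all exons (Spearman's rank correlation 0.997 over 52 members, as a description).

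**Figure D2:**
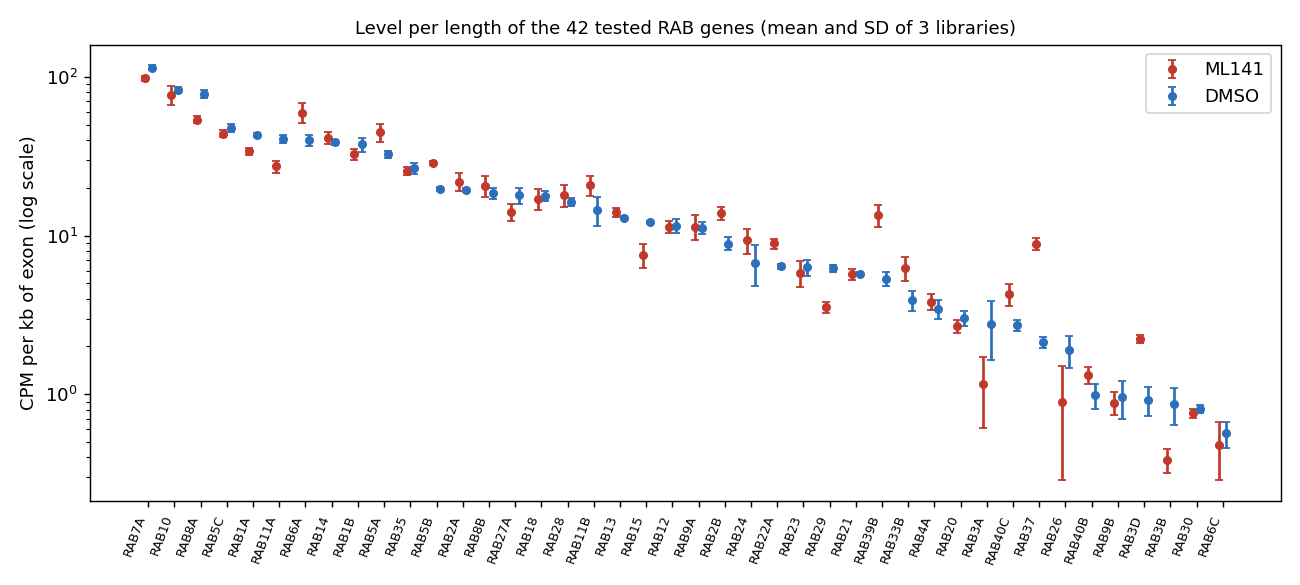
Mean level in CPM per kb of exon (log axis) of the 42 tested RAB genes with ML141 and with DMSO, ordered by the DMSO level; bars are SD of 3 libraries. RAB7A is highest at 97.8 with ML141 and 114 with DMSO, the lowest points are RAB3B at 0.383 with ML141 and RAB6C at 0.567 with DMSO, and RAB37, RAB39B and RAB3D stand above their DMSO values.

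The RABs of exocytosis and secretory granules moved in both directions. Of 10 tested, 2 rose and 5 fell (median log2 fold change -0.22), beside 26.7% and 27.7% of all tested genes. RAB37, a secretory granule RAB known from mast cells and macrophages, had 37.2, 39.0 and 43.8 CPM with ML141, against 9.46, 8.91 and 10.3 CPM with DMSO. It rose 4.18-fold, with each ML141 library far above each DMSO library (log2 fold change 2.06, SE 0.127, edgeR adjusted p 2.50e-07). RAB3D, on the granules of secretory cells, had 9.73, 10.4 and 9.37 CPM with ML141, against 3.11, 4.66 and 4.43 CPM with DMSO. It rose as well (log2 fold change 1.26, SE 0.190, edgeR adjusted p 1.71e-04). RAB3D shares 20.5% of its exon bases with AC011472.3 on the other strand, and the library kit does not mark strand, so reads of the 2 cannot be told apart.

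Its close relatives went the other way. RAB3B, which acts in regulated secretion, had 3.98, 5.20 and 5.59 CPM with ML141, against 14.1, 8.39 and 10.9 CPM with DMSO, and fell (log2 fold change -1.16, SE 0.219, edgeR adjusted p 8.24e-04). RAB3A, the synaptic vesicle RAB, had 1.48, 2.71 and 1.12 CPM with ML141, against 2.33, 5.70 and 4.63 CPM with DMSO. Its fall rested on 65 counts with ML141 and 121 with DMSO, and the groups overlap, since the second ML141 library lies above the first DMSO library (log2 fold change -1.25, SE 0.369, edgeR adjusted p 0.0131). Leaving out ML141 replicate 3 ended the RAB3A call (adjusted p 0.0642) as did leaving out DMSO replicate 2 (0.0810). RAB26, a RAB of secretory granules, had 0.648, 2.87 and 1.46 CPM with ML141, against 2.98, 3.11 and 4.43 CPM with DMSO (log2 fold change -1.05, SE 0.395, edgeR adjusted p 0.0409). RAB26 reached the filter's minimum in all 3 DMSO libraries but in 2 of the 3 ML141 libraries. The RAB26 call, on 62 counts with ML141 and 99 with DMSO, ended without ML141 replicate 1 (adjusted p 0.0689), ML141 replicate 3 (0.127), DMSO replicate 1 (0.0583), DMSO replicate 2 (0.0713) or DMSO replicate 3 (0.163), and without ML141 replicate 2 its log2 fold change was -1.72. Upper-quartile factors and library totals ended it too (adjusted p 0.0806 and 0.0942).

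RAB8A had 143, 158 and 154 CPM with ML141, against 207, 229 and 228 CPM with DMSO, each ML141 library below each DMSO library (log2 fold change -0.55, SE 0.0804, edgeR adjusted p 1.41e-04). Of its exon bases, 36.0% lie opposite AC008894.2. RAB27A, which docks secretory lysosomes and lytic granules, had 44.7, 54.0 and 56.9 CPM with ML141, against 73.9, 58.7 and 66.2 CPM with DMSO, with no overlap but a gap of under 2 CPM (log2 fold change -0.35, SE 0.118, edgeR adjusted p 0.0251). The RAB27A call was lost under 8 of 19 alternatives. Among them were the fits without DMSO replicate 1 (adjusted p 0.106) or DMSO replicate 3 (0.0648), with upper-quartile factors (0.119) and with library totals (0.245). RAB10 had 313, 242 and 260.1 CPM with ML141, against 305, 282 and 285 CPM with DMSO (log2 fold change -0.10, adjusted p 0.418), and the groups overlap, with ML141 replicate 1 the highest of all 6; without that library RAB10 was called lower (log2 fold change -0.21, adjusted p 0.0243). RAB8B and RAB13 did not pass (log2 fold changes 0.16 and 0.11). Per kb of exon, the 15 members of this group summed to 203, 186 and 189.96 CPM with ML141 and 219.6, 217 and 219 CPM with DMSO, lower in each ML141 library. The mean sum was 192.8 with ML141 and 218.5 with DMSO, and RAB8A had 53.6 of it with ML141 and 78.3 with DMSO. RAB37 went the other way, with 8.90 and 2.13. The sum thus mostly follows RAB8A. Sums per kb of all groups were taken with TMM scaling alone, so their dependence on scaling was not tested.

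**Figure D3:**
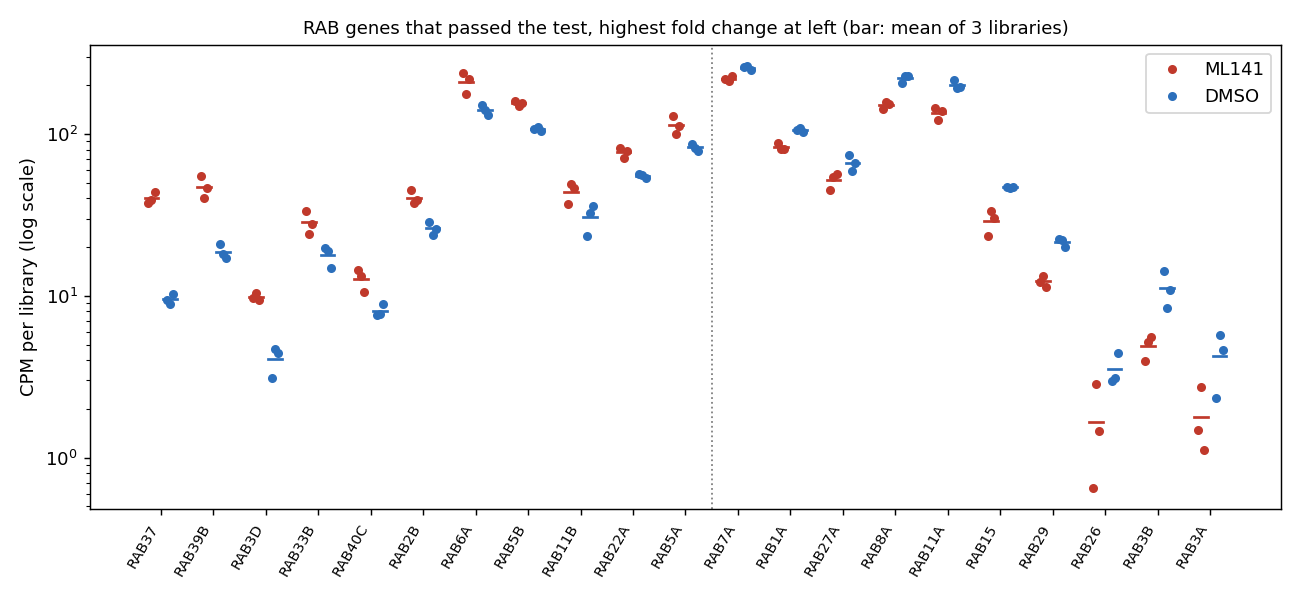
CPM (log axis) in each of the 3 ML141 and 3 DMSO libraries of the 21 RAB genes that passed the test, from the highest log2 fold change at left (RAB37, 2.06) to the lowest at right (RAB3A, -1.25); bars are means of 3 libraries. The dotted line parts the 11 genes that rose from the 10 that fell, and RAB3A is the one whose groups overlap.

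On early endosomes 3 of 8 tested RABs rose and none fell (median log2 fold change 0.13), beside 26.7% and 27.7% of all tested genes. RAB5A, which tethers and fuses early endosomes, had 129, 99.8 and 112 CPM with ML141, against 86.7, 82.4 and 78.4 CPM with DMSO (log2 fold change 0.46, SE 0.103, edgeR adjusted p 0.00247). RAB5B, its close relative, had 159, 149 and 156 CPM with ML141, against 108, 109.6 and 104 CPM with DMSO (log2 fold change 0.53, SE 0.0766, edgeR adjusted p 1.18e-04). RAB22A, which sorts cargo on the same organelle, had 82.3, 71.1 and 78.5 CPM with ML141, against 56.8, 56.1 and 53.2 CPM with DMSO (log2 fold change 0.48, SE 0.0926, edgeR adjusted p 9.31e-04). For all 3 each ML141 library lay above each DMSO library, as for 30.5% of all tested genes. The third RAB5 gene, RAB5C, had 79.4, 84.0 and 88.6 CPM with ML141, against 85.4, 90.6 and 95.8 CPM with DMSO, and the groups overlap (log2 fold change -0.11, adjusted p 0.307). Within same-numbered pairs RAB5C was lower with ML141 in each, by log2 ratios of -0.11, -0.11 and -0.11, and with the replicate block it did not pass either (adjusted p 0.234). RAB14 had 187, 159 and 168 CPM with ML141, against 167, 158 and 154 CPM with DMSO (log2 fold change 0.10, adjusted p 0.339). The remaining tested genes, RAB4A, RAB20 and RAB21, had log2 fold changes from -0.18 to 0.15 and did not pass. Summed per kb of exon, the 11 members of this group held 189, 169 and 182 CPM with ML141 and 158, 157 and 155 CPM with DMSO.

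RABs of the recycling endosome, the route by which cargo returns to the plasma membrane, split. RAB11A, the main RAB of this route, had 144, 122 and 138 CPM with ML141, against 215, 193 and 195 CPM with DMSO, and fell with no overlap (log2 fold change -0.58, SE 0.0879, edgeR adjusted p 1.72e-04). RAB11B had 36.9, 49.0 and 46.1 CPM with ML141, against 23.3, 32.5 and 35.9 CPM with DMSO. It rose, with the lowest ML141 library just above the highest DMSO library (log2 fold change 0.52, SE 0.157, edgeR adjusted p 0.0148). Without ML141 replicate 3 or DMSO replicate 1 RAB11B missed the threshold (adjusted p 0.0609 and 0.0590), and 12.2% of RAB11B exon bases lie opposite RAB11B-AS1. RAB15, known for slowing endocytic recycling, had 23.4, 33.3 and 30.1 CPM with ML141, against 47.1, 46.4 and 47.3 CPM with DMSO, and fell (log2 fold change -0.69, SE 0.127, edgeR adjusted p 6.82e-04). RAB35, for fast recycling at the plasma membrane, did not pass (log2 fold change -0.06). The 5 members summed to 79.2, 82.7 and 81.5 CPM per kb with ML141 and 90.9, 94.4 and 96.8 CPM per kb with DMSO. The mean sum was 81.1 with ML141 and 94.0 with DMSO. RAB11A had 27.3 of it with ML141 and 40.8 with DMSO, and RAB11B, which went the other way, 20.8 and 14.5.

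The RAB3 and RAB11 groups are the ones in which 1 gene rose and another fell, so their promoters are shown for comparison. Each is the 250 bases before the RefSeq start of the gene on GRCh38.p14, 5′ to 3′ on the gene's strand, with the matches to 2 promoter elements in capitals: the GC box (GGGCGG, or CCGCCC on the other strand), bound by SP1 and its relatives, and the CCAAT box (CCAAT, or ATTGG), bound by NF-Y. The windows are chr19:11339658-11339907 on the minus strand for RAB3D, chr19:18204043-18204292 on the minus strand for RAB3A, chr1:51990701-51990950 on the minus strand for RAB3B, chr19:8390110-8390359 on the plus strand for RAB11B and chr15:65869241-65869490 on the plus strand for RAB11A.
RAB3D (rose): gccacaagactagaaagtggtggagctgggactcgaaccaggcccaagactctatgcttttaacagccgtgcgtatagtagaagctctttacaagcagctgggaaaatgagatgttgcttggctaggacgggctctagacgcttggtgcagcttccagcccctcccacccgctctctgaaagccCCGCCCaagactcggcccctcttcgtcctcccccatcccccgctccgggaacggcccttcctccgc
RAB3A (fell): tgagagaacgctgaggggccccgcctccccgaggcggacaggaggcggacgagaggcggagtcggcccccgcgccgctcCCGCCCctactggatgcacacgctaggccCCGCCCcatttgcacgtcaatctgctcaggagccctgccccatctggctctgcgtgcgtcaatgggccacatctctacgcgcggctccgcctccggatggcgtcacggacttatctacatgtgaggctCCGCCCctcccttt
RAB3B (fell): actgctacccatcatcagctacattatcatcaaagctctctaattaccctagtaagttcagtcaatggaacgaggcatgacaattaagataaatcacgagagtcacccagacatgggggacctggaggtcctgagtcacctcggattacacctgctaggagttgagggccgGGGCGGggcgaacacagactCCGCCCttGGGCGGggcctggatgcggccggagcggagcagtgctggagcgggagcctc
RAB11B (rose): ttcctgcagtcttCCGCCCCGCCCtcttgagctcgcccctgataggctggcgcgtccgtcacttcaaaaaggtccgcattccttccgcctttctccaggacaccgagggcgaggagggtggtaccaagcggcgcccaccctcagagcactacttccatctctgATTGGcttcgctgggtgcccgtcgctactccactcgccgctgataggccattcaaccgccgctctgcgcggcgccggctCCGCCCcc
RAB11A (fell): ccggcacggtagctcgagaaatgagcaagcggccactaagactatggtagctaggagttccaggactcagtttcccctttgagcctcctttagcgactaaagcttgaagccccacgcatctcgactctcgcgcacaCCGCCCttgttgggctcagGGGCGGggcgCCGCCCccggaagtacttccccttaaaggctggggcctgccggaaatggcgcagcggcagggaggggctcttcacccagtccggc
GC boxes stand in all 5 windows, 1 in RAB3D and 3 in each of the others, a pair of those in RAB11B overlapping, and a CCAAT box stands in RAB11B alone, ending 83 bases before the start (written -83). GENCODE 29 also holds starts of RAB3D, RAB11A and RAB11B upstream of these windows. Its outermost starts of RAB3A and RAB3B lie inside their windows. The GC box of RAB3A at -14 to -9 and those of RAB3B at -59 to -54 and -51 to -46 lie downstream of those starts.

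Such windows were given for 49 of the 62 members and for 27305 genes in all; RAB37, RAB39B, RAB33B, RAB1A, RAB15, RAB26, RAB2A, RAB12, RAB20, RAB33A, RAB36, RAB38 and RAB44 had none. A GC box stood in 38 of 49 members (77.6%) and in 42.3% of all windows. Members that rose held one in 7 of 8 windows, members that fell in 6 of 7 and tested members that did not pass in 16 of 18. A CCAAT box stood in 4 of 8 members that rose (RAB11B, RAB2B, RAB40C and RAB5B), in 1 of 7 that fell (RAB8A), in 5 of 18 that did not pass and in 33.0% of all windows. The other sequences searched on both strands were the E-box CACGTG, with 1 match among members that rose (RAB5A) and 0 among members that fell, and the cyclic-AMP element TGACGTCA, the amino-acid response element TGATGNAAT, the TATA box TATAAA and the forkhead site GTAAACA, with 0 matches among called members. They stood in 6.49%, 1.77%, 0.916%, 11.1% and 2.98% of all windows, in that order. A match is a string of letters and not evidence of binding.

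At the ER and the Golgi 3 of 9 tested RABs rose and 1 fell (median log2 fold change -0.07), beside 26.7% and 27.7% of all tested genes. RAB6A had 238, 178 and 217 CPM with ML141, against 151, 141 and 130.1 CPM with DMSO, and rose with no overlap (log2 fold change 0.58, SE 0.109, edgeR adjusted p 7.53e-04). Of RAB6A's 50-base stretches 21.6% occur elsewhere, chiefly in RAB6C, and 11.996% of its exon bases lie opposite AP002770.1. RAB2B, a Golgi RAB, had 44.7, 37.7 and 38.9 CPM with ML141, against 28.7, 23.8 and 25.7 CPM with DMSO, and rose (log2 fold change 0.63, SE 0.117, edgeR adjusted p 6.85e-04). RAB33B, a Golgi RAB that also binds the autophagy protein ATG16L1, had 33.5, 24.0 and 27.9 CPM with ML141, against 19.8, 18.9 and 14.9 CPM with DMSO, with ML141 replicate 1 the highest (log2 fold change 0.67, SE 0.155, edgeR adjusted p 0.00306). RAB1A had 88.2, 80.8 and 80.3 CPM with ML141, against 105, 109 and 103 CPM with DMSO, and fell (log2 fold change -0.35, SE 0.0829, edgeR adjusted p 0.00384); with library totals that call was lost (adjusted p 0.0616). RAB1B, RAB2A, RAB18, RAB30 and RAB6C did not pass, with log2 fold changes from -0.25 to 0.17. Of RAB6C's 50-base stretches 55.8% occur elsewhere, so its counts are uncertain.

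On late endosomes, lysosomes and related organelles 1 of 7 tested RABs rose and 2 fell (median log2 fold change -0.03). Of all tested genes 26.7% rose and 27.7% fell. RAB39B, a RAB known from neurons and mutated in an X-linked intellectual disability with parkinsonism, had 55.3, 40.3 and 46.4 CPM with ML141, against 20.9, 18.1 and 17.2 CPM with DMSO. It rose 2.53-fold, with all ML141 libraries well above all DMSO libraries (log2 fold change 1.34, SE 0.138, edgeR adjusted p 9.09e-06). RAB29, which recruits the kinase LRRK2 to lysosomes and the trans-Golgi, had 12.1, 13.3 and 11.3 CPM with ML141, against 22.4, 22.0 and 20.1 CPM with DMSO, and fell (log2 fold change -0.81, SE 0.129, edgeR adjusted p 2.63e-04). RAB7A had 218, 212 and 229 CPM with ML141, against 258, 264 and 247 CPM with DMSO (log2 fold change -0.22, SE 0.0745, edgeR adjusted p 0.0239). The RAB7A call was lost under 8 of 19 alternatives, the fit without the low-count filter among them. It was lost without DMSO replicate 1 (adjusted p 0.0641) or DMSO replicate 2 (0.0993), and without replicate 2 or replicate 3 of both groups. It was also lost with upper-quartile factors (log2 fold change -0.12, adjusted p 0.158) and with library totals (-0.05, 0.561). RAB24, an atypical RAB tied to autophagy, had 10.6, 14.3 and 14.96 CPM with ML141, against 6.48, 10.7 and 11.6 CPM with DMSO, groups that overlap (log2 fold change 0.46, SE 0.212, edgeR adjusted p 0.0878). With the replicate number as a block RAB24 was called higher (0.47, adjusted p 0.0120), and so it was without ML141 replicate 1 (0.58, adjusted p 0.0162). RAB9A, RAB9B and RAB12 had log2 fold changes from -0.09 to 0.03.

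The 2 tested RABs of the cilium, RAB23 and RAB28, did not pass (log2 fold changes -0.12 and 0.14), and 57.7% of RAB23's exon bases lie opposite BAG2. Of the RAB40 genes, whose proteins carry a SOCS box and serve in cullin ubiquitin ligases, RAB40C had 14.5, 13.3 and 10.6 CPM with ML141, against 7.65, 7.77 and 8.87 CPM with DMSO. It rose with no overlap (log2 fold change 0.65, SE 0.167, edgeR adjusted p 0.00571). RAB40B did not pass (log2 fold change 0.42, adjusted p 0.110).

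The balance between paralogs was followed as the log2 ratio of their CPM within each library, over 13 pairs, with a 2-sided exact permutation test over the 6 libraries whose smallest p for 3 against 3 is 0.1. Groups did not overlap for 8 pairs, each at an exact p of 0.1, or 0.163 after adjustment over the pairs, so none could pass a threshold of 0.05. Among all tested single genes 61.2% did not overlap in either direction. The share among other gene pairs was not computed, and some genes stand in several pairs. The count of pairs is therefore not a result about paralogs. RAB3D over RAB3A was 2.71, 1.94 and 3.07 with ML141, against 0.42, -0.29 and -0.06 with DMSO, a difference of 2.55. RAB3D over RAB3B was 1.29, 1.00 and 0.75 with ML141, against -2.18, -0.85 and -1.30 with DMSO, a difference of 2.45. RAB3D thus became the main RAB3 transcript per length, at 59.8 ± 6.93% of the RAB3 total with ML141 and 20.4 ± 0.88% with DMSO (SD, n = 3 each). RAB11A over RAB11B was 1.97, 1.31 and 1.58 with ML141, against 3.20, 2.57 and 2.45 with DMSO, a difference of -1.12. RAB11B made up 43.3 ± 5.55% of the RAB11 total per length with ML141 and 26.1 ± 5.20% with DMSO (SD, n = 3 each).

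Smaller shifts without overlap were seen in RAB8A over RAB8B (-0.69), RAB5B over RAB5C (0.64), RAB5A over RAB5C (0.56), RAB2B over RAB2A (0.47) and RAB6A over RAB6C (0.90, with RAB6C at under 3 CPM). RAB5C held 37.5 ± 2.97% of the RAB5 total per length with ML141 and 47.5 ± 2.40% with DMSO (SD, n = 3 each). The groups overlapped for RAB1A over RAB1B (-0.14, exact p 0.4), RAB3A over RAB3B (-0.10, exact p 0.9), RAB5A over RAB5B (-0.08, exact p 0.5), RAB9A over RAB9B (0.10, exact p 0.6) and RAB40C over RAB40B (0.22, exact p 0.4). A ratio describes how the balance of 2 paralogs differed, not which of them moved, which the tests of single genes above address. None of these ratios passed the permutation test.

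**Figure D4:**
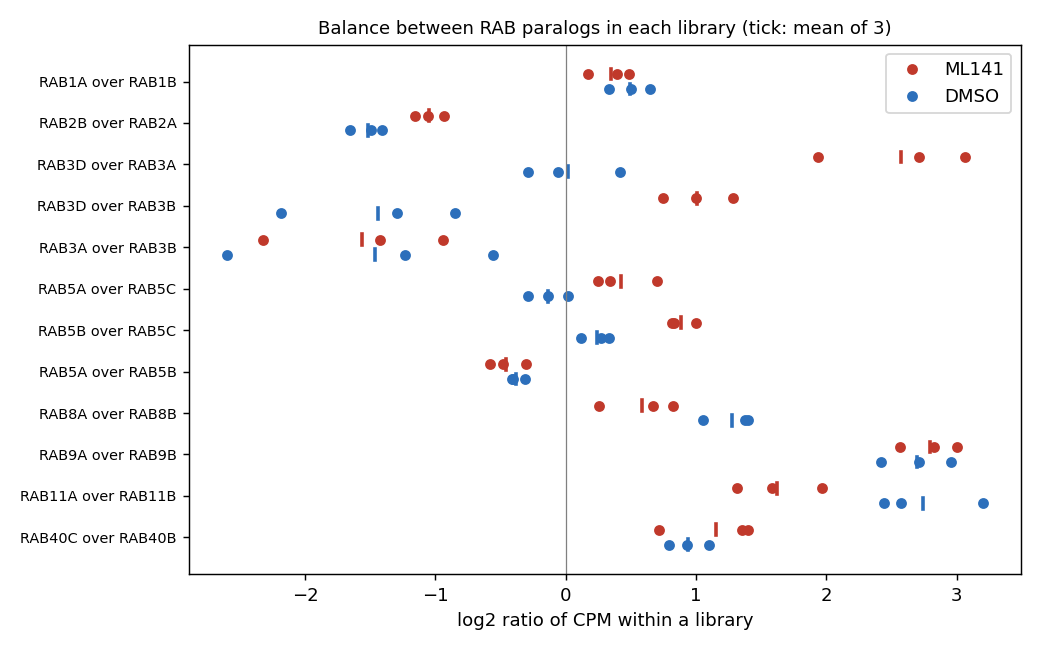
Log2 ratio of CPM of 2 RAB paralogs in each of the 3 ML141 and 3 DMSO libraries for 12 of the pairs; ticks are means of 3, and RAB6A over RAB6C lies off the scale and is left out. RAB3D over RAB3A sits between 1.94 and 3.07 with ML141 and between -0.29 and 0.42 with DMSO, and RAB11A over RAB11B lies lower with ML141 than with DMSO in every library.

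Of the 20 members that were not tested, 7 had no count in any library: RAB19, RAB32, RAB36, RAB39A, RAB41, RAB4B and RAB7B. With 3 counts as the limit that a count of 0 allows, a library could still hold 0.226 to 0.389 CPM of each. The other 13 summed to at most 50 counts over all libraries: RAB17, RAB25, RAB27B, RAB31, RAB33A, RAB34, RAB38, RAB3C, RAB40A, RAB42, RAB43, RAB44 and RAB6B. RAB43, a Golgi RAB, had 34 counts over the ML141 libraries and 5 over the DMSO libraries, a ratio of 5.28 after scaling (95% Clopper-Pearson interval 2.06 to 17.3, counting error only); it was singled out after its values were seen. RAB27B, the relative of RAB27A, had 24 counts with ML141 and 12 with DMSO (ratio 1.55, interval 0.748 to 3.41). RAB43 shares 84.5% of its exon bases with the read-through gene ISY1-RAB43 and RAB4B 65.4% with MIA-RAB4B, and those read-through entries, like RAB4B-EGLN2, held 0 counts. How reads over shared exons were assigned is not given in the sources used here, and its part in these low counts was not tested.

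The partners that load, unload and read RABs were counted over 4 lists, beside the same 26.7% of all tested genes that rose and 27.7% that fell. Among 14 genes of prenylation and membrane extraction, 4 rose and 3 fell (median log2 fold change 0.15). CHML, an escort protein that presents new RABs for prenylation, fell to 78.4 ± 3.97 CPM with ML141, against 158 ± 7.46 CPM with DMSO (SD, n = 3 each; log2 fold change -1.01, SE 0.0827, edgeR adjusted p 1.66e-06). GDI2, the GDI that takes RABs off membranes, fell to 727 ± 95.1 CPM with ML141, against 978 ± 58.9 CPM with DMSO (log2 fold change -0.43, edgeR adjusted p 0.00324). RABGGTB, the catalytic subunit of the geranylgeranyl transferase for RABs, fell to 117 ± 18.9 CPM with ML141, against 148 ± 2.27 CPM with DMSO (-0.34, edgeR adjusted p 0.0170). It missed the threshold without ML141 replicate 3 (adjusted p 0.0839), without DMSO replicate 2 (0.0628) and with library totals (0.150). GGPS1, which makes the geranylgeranyl lipid, rose to 57.0 ± 12.4 CPM with ML141, against 37.7 ± 2.75 CPM with DMSO (0.60, edgeR adjusted p 0.00386). PRAF2 and RABAC1, both PRA1-family proteins of RAB membranes, had log2 fold changes of 0.65 and 0.53. PRAF2 shares 43.6% of its exon bases with WDR45 and RABAC1 38.9% with AC010616.2 on the same strand, and the RABAC1 call (edgeR adjusted p 0.0406) was lost without ML141 replicate 2 (0.111), ML141 replicate 3 (0.0870), DMSO replicate 1 (0.128) or DMSO replicate 2 (0.0836). The count of 4 that rose was 2 without ML141 replicate 3 or without DMSO replicate 2.

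Of 51 tested exchange factors 19 rose and 4 fell, with a median of 0.17. TRAPPC2, a subunit of the TRAPP complexes that act on RAB1, rose to 60.9 ± 3.54 CPM with ML141, against 24.0 ± 1.52 CPM with DMSO (log2 fold change 1.34, SE 0.103, edgeR adjusted p 1.09e-06). RIC1, part of an exchange factor for RAB6, had a log2 fold change of 0.63, and the TRAPP subunit TRAPPC6B one of 0.82, with 76.9% of its exon bases opposite AL109628.2. The TRAPP subunits TRAPPC4 and TRAPPC2L fell (-0.63 and -0.58), as did GAPVD1, an exchange factor for RAB5 (-0.49). Of the 19, ALS2CL, SH3BP5 and RAB3IL1, named after their values were seen, reached the filter's minimum in the ML141 libraries alone, so they entered the test only because they were high there. With a stricter filter, which asks for a mean of 10 counts in each group, 17 exchange factors rose and 4 fell, beside 2911 and 3024 genes in all. ALS2CL had 44 counts with ML141 and 2 with DMSO (ratio 17.1, 95% Clopper-Pearson interval 4.46 to 146, counting error only), and its fitted value of 3.89 depends on those 2 counts.

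Of 35 tested GTPase-activating proteins 13 rose and 4 fell, with a median of 0.22. Of the 13, TBC1D2 reached the filter's minimum in 3 ML141 libraries but in only 2 DMSO libraries. TBC1D17 rose to 32.9 ± 5.83 CPM with ML141, against 11.3 ± 1.60 CPM with DMSO (log2 fold change 1.54, SE 0.163, edgeR adjusted p 1.09e-05), with 16.4% of its exon bases opposite AKT1S1. TBC1D16 and TBCK, which also carry TBC domains, rose by 0.78 and 0.95 on the log2 scale. TBC1D4 and TBC1D1, GTPase-activating proteins known for RAB10 and RAB8A, fell (-0.57 and -0.46), as did TBC1D14 (-0.36), of whose exon bases 47.9% lie opposite AC097382.2.

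Of 58 tested effectors 24 rose and 11 fell, with a median of 0.20. RIMS3, placed on this list as a member of the RIM family, rose to 81.8 ± 0.161 CPM with ML141, against 9.17 ± 0.770 CPM with DMSO (log2 fold change 3.16, SE 0.110, edgeR adjusted p 1.00e-08). Whether RIMS3 itself binds RAB3 was not tested. SYTL1, which binds RAB27A at the plasma membrane, rose to 34.9 ± 5.08 CPM with ML141, against 7.72 ± 1.92 CPM with DMSO (log2 fold change 2.16, SE 0.179, edgeR adjusted p 1.75e-06). OPTN, an autophagy receptor that binds RAB8, rose to 21.3 ± 3.75 CPM with ML141, against 7.62 ± 0.706 CPM with DMSO (1.47, edgeR adjusted p 1.78e-05). MYRIP, which links RAB27A to myosin, fell to 3.94 ± 0.282 CPM with ML141, against 8.98 ± 1.20 CPM with DMSO (-1.18, edgeR adjusted p 2.17e-04). BICD2, the dynein adaptor of RAB6 vesicles, and TGFBRAP1, a subunit of the CORVET tether of RAB5 endosomes, fell by 0.47 and by 0.45 on the log2 scale.

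The split of partner calls also moved with the scaling. With library totals, under which 39.2% of all tested genes rose and 20.1% fell, 7 genes of prenylation and membrane extraction rose and 2 fell, 28 exchange factors rose and 3 fell, 21 GTPase-activating proteins rose and 3 fell, and 33 effectors rose and 4 fell. Whether any list differed from other genes was not tested.

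**Figure D5:**
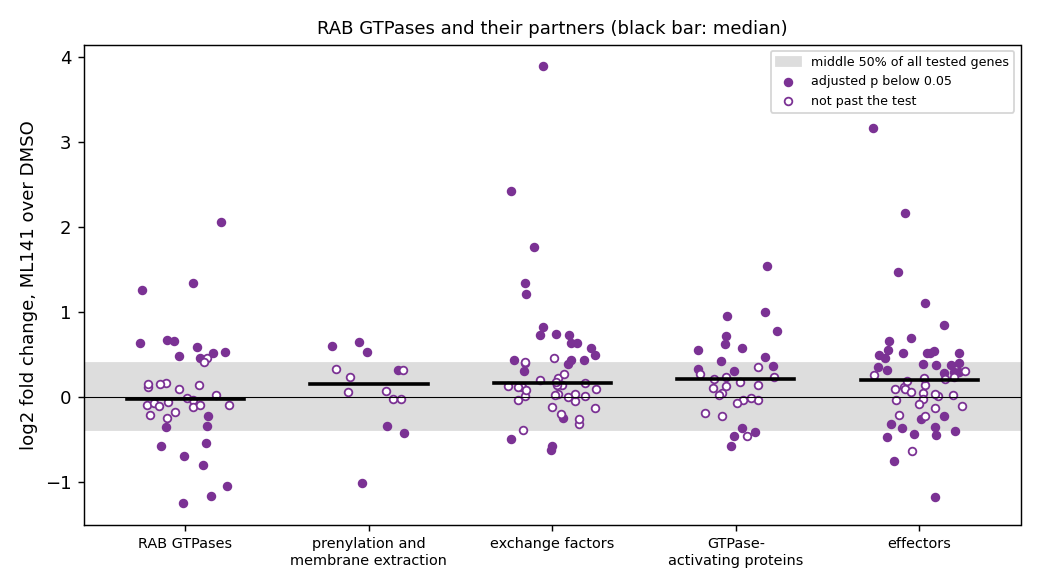
Log2 fold change of ML141 over DMSO for the tested RAB genes and 4 lists of their partners; filled points passed an adjusted p of 0.05, black bars are medians and the grey band spans the middle 50% of all tested genes (-0.38 to 0.40). The medians of the lists lie between -0.02 for RAB GTPases and 0.22 for GTPase-activating proteins, all inside the band; the exchange factor point at 3.89 is ALS2CL, which entered the test through its ML141 libraries alone and has 2 counts with DMSO.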

How the data were processed

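RNA was measured in REH cells in 3 ML141 and 3 DMSO libraries, grouped by the sample titles. Per the labels' protocols, column-purified RNA went into libraries of the TruSeq RNA v2 kit, which keeps no strand information. Per gene symbol, the deposited table gives raw whole-number counts. It also holds a score per library, which is the count after the authors' normalization rounded to whole numbers, and the log2 fold change and p-value of the authors' own comparison; none of these were used here. The submitters' processing notes name the build hg38 and the tools DESeq2, featureCounts, Picard, Bowtie2, Trimmomatic and bcl2fastq 2.19; settings and annotation, not given in the sources used here, could shift counts. Since Bowtie2 aligns without splitting reads over introns, counts of genes with many short exons can be lowered.

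Counts were tested with edgeR 4.0.16 (TMM, filterByExpr at its minimum count of 10 and total of 15, glmQLFit and glmQLFTest, Benjamini-Hochberg over 11454 genes). The alternatives were DESeq2 1.42.0, limma 3.58.1 (voom), other scalings and filters, a minimum fold change of 1.5, a replicate block, leaving out libraries, and, added after the data were seen, offsets for GC content and length (loess, span 0.5). Levels per kb used the merged exons of GENCODE 29, to which all 62 members matched. Promoter sequences are RefSeq's on GRCh38.p14.

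Same-numbered libraries deviated together from their group means (r = 0.504, 0.144 and 0.254 over 8890 genes), so the numbers were taken to pair the samples, although ML141 replicate 2 correlated more with DMSO replicate 3 (r = 0.385) than with DMSO replicate 2. The column labels of same-numbered libraries also share an ending, CV for replicate 1 and Reh with a number for the others. What these endings stand for is not given in the sources used here. The main edgeR fit and the permutation tests left this pairing out, and the replicate block was fitted as an alternative. No libraries were duplicates. The members, roles and partner lists were chosen with earlier results of these data known. Named genes were the 10 members with the largest change in each direction, the 8 highest per length in DMSO, members of paralog groups with opposite calls, up to 3 genes with the smallest p per direction and partner list, and CDC42. The fit was also run on simulated counts of 11343 genes, with 100 genes changed 1.5-fold and 100 changed 2-fold. It called 70.7% and 95.9% of those tested, and 3.55% of its calls were false. Far fewer genes changed there than in these data, where 54.4% were called, so the simulation cannot show how well the scaling holds here.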

Additional observations from a re-analysis of the deposited data

How the results depend on the processing

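Of the 21 RAB calls, RAB37, RAB39B, RAB3D and RAB3B held under all 19 alternatives; RAB2B, RAB6A, RAB5B, RAB22A, RAB8A, RAB11A, RAB15 and RAB29 were lost under the minimum fold change of 1.5 alone. That test left 3 RABs higher and 1 lower of 1811 changed genes in all; among partners it left 0 higher and 1 lower for prenylation and membrane extraction, 6 and 0 for exchange factors, 3 and 0 for GTPase-activating proteins, and 4 and 1 for effectors. Its own construction asks for more change. Library totals gave 18 RABs higher and 6 lower with a median of 0.15, beside 4494 and 2302 genes in all. They also gave 7 higher for prenylation, 21 higher for GTPase-activating proteins and 4 lower for effectors. With the replicate block 12 RABs were higher and 10 lower of 6979 changed genes, RAB24 being the RAB whose call changed. Leaving out libraries gave 9 to 12 RABs higher and 5 to 11 lower, 4161 to 6567 changed genes, 2 to 4 higher for prenylation, 11 to 21 higher for exchange factors, and 14 to 25 higher and 6 to 12 lower for effectors; fewer samples were fitted. The 5 lower came without replicate 3 of both groups, where RAB33B and RAB5A also missed the threshold (adjusted p 0.0543 and 0.0505); RAB40C did so without replicate 2 (0.0624). GC and length offsets gave 15 RABs higher and 10 lower, beside 3375 and 3577 genes in all, and left RAB27A uncalled (adjusted p 0.0854).

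Signs turned for uncalled RABs with log2 fold changes near 0. With upper-quartile factors RAB21 was 0.094, RAB12 0.066, RAB35 0.042, RAB18 0.033, RAB9B 0.0079, RAB30 0.0063 and RAB10 5.79e-04. With library totals RAB21 was 0.17, RAB12 0.14, RAB35 0.11, RAB18 0.11, RAB9B 0.0797, RAB30 0.078, RAB10 0.073, RAB5C 0.063 and RAB23 0.056. RAB21 was 0.013 without the low-count filter and 0.0081 with a stricter one, and RAB12 was 0.029 with GC and length offsets. Leaving out libraries put RAB9A between -0.12 and 0.15, RAB21 between -0.069 and 0.067, RAB12 between -0.16 and 0.041, RAB35 between -0.15 and 0.021, RAB18 between -0.17 and 0.046, RAB9B between -0.25 and 0.12 and RAB6C between -0.51 and 0.0041. It put the log2 ratio of RAB3A over RAB3B between -0.67 and 0.35 and that of RAB9A over RAB9B between -0.036 and 0.23. The cause of these turns was not tested. Few counts limit RAB3A, RAB26, RAB6C and the 20 untested members.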
